A study of Bos taurus with 4 samples.

Results

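The fragments of 18S ribosomal RNA described here are the sequences to which the deposited annotation gave a small-subunit (SSU) rRNA name. They were 19065 of 2468643 distinct sequences, under 5 of 38611 names. Small RNAs were sequenced from bovine (Bos taurus) oocytes at the germinal vesicle (GV) stage, in 2 libraries of input RNA, labelled with no antibody, and 2 libraries of RNA recovered with an anti-Tdrkh antibody (TDRKH IP). No genotype or treatment is given, so the groups share tissue and stage and differ in the precipitation. The labels do not say that replicates came from separate oocyte pools, so p-values measure only the spread between these libraries. A control-antibody precipitation is not among the libraries, so binding to TDRKH and background of the precipitation cannot be told apart. The inputs held 1079364 and 1354003 listed reads and the IPs 11138905 and 11060320. Of these, 11054 and 15322 input reads and 24228 and 23967 IP reads were 18S fragments.

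18S rRNA is the RNA of the small ribosomal subunit, where it decodes the messenger RNA. It is present in every cell, and its breakdown gives fragments of many lengths in small RNA libraries. PIWI-interacting RNAs (piRNAs) are bound by PIWI proteins, mostly begin with U (read as T) and have a length that depends on the PIWI protein. TDRKH, a partner of PIWI proteins with tudor domains, acts in trimming the 3′ ends of piRNA precursors. The comparison asks which 18S fragments accompany TDRKH.

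No 18S reference sequence was used. The reads themselves overlapped into a stretch of 1565 and one of 316 bases, which share 9 bases and join to 1872 bases. The first base of this joined sequence was taken as the 5′ end of mature 18S rRNA and base 1869 as its 3′ end, without a check against a reference. Positions below count from 1 at its first base. The fragments the results turn on are these, 5′ to 3′, with the first base in capitals because it is compared between groups. The first 6 lines were the leading fragments of the IPs or rose in them.
bases 1279 to 1304: Cggacaggattgacagattgatagct
bases 1595 to 1619: Ttcgtgatggggatcggggattgca
bases 914 to 938: Tgattaagagggacggccgggggca
bases 137 to 163: Tcctacttggataactgtggtaattct
bases 104 to 128: Atcagttatggttcctttggtcgct
bases 1507 to 1533: Gatgtccggggctgcacgcgcgctaca
The next 5 were abundant in the inputs and fell in the IPs.
bases 282 to 307: Ggctttggtgactctagataacctcg
bases 745 to 770: Cctctcggcgccccctcgatgctctt
bases 919 to 938: Aagagggacggccgggggca
bases 106 to 130: Cagttatggttcctttggtcgctcg
bases 1768 to 1785: Acggccctggcggagcgc

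18S fragments took 1.02% and 1.13% of the listed reads of the inputs and 0.218% and 0.217% of those of the IPs. The groups do not overlap, and the IP share was 0.202 of the input share. The fitted log2 change was -2.31 ± 0.13 (SE, n = 2 libraries per group, edgeR quasi-likelihood adjusted p = 1.2e-18), where 82.4% of the 17 RNA classes tested were lower. On the same scale 5S rRNA fragments kept 0.429 of their input share, 5.8S rRNA fragments 0.891 (edgeR adjusted p = 0.471) and mitochondrial rRNA fragments 0.0132. Bovine microRNAs kept 0.0373, and reads of piRNA clusters took 1.10 times their input share. With TMM factors (from the trimmed mean of M values) the 18S change was -0.73, and with DESeq2's own size factors -0.81. With microRNA reads in place of listed reads as library size, the 18S change was 2.45, so its direction holds per listed read and not per microRNA read.

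MicroRNAs listed as markers of other cells moved in the same direction. The 4 cumulus and granulosa cell microRNAs summed to 236 and 283 RPM (reads scaled to 1000000 listed reads) in the inputs and to 1.26 and 2.71 in the IPs. The leukocyte list (3 of 4 with input reads) summed to 60.7 and 49.5 RPM against 0.628 and 0.316. Epithelial microRNAs summed to 58.4 and 59.1 RPM against 0.628 and 0.181, the liver microRNA to 435 and 335 against 1.71 and 2.35, and those of smooth muscle and stroma to 87.1 and 71.6 against 2.24 and 3.71. The part of such cells in the fall of the 18S fragments was not tested. Bovine microRNAs as a whole kept 0.0373 of their input share, so a fall was not confined to these lists. The lists other than that of smooth muscle and stroma kept a smaller part of their input level than that. Whether this further fall came from other cells was not tested. A precipitate is compared with input RNA in bulk libraries, so numbers of cells cannot be read from these values.

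All 5 SSU names fell, with log2 changes of -2.44 to -1.95, beside 58.2% of the 5414 names tested that were lower. With DESeq2's own size factors 2 of the 5 were called lower and 1 lay above 0. A read often matched several entries. The authors' annotation gave most members the names of the entries of 1861 and 1873 bases, which cover nearly the whole 18S sequence. Of 16 combinations of names tested, 15 were lower, with log2 changes of -5.75 to -1.71, beside 4085 lower of all 17772 tested. The other, reads that match the entry of 1366 bases alone, had 97.3 and 99.7 RPM in the inputs and 149 and 179 RPM in the IPs. It rose by 0.74 ± 0.20 on the log2 scale (edgeR adjusted p = 0.00635), beside 14.7% of all combinations that were higher. This call was lost without either input library or without the second IP library.

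In length, the 18S reads of the IPs formed a peak that those of the inputs hardly had. Fragments of 24 to 28 nt were 39.2% and 37.6% of the input 18S reads and 75.1% and 75.1% of the IP 18S reads. Within piRNA cluster reads that range held 78.3% and 77.6% in the inputs and 75.2% and 74.2% in the IPs. The rise was not particular to 18S: in 5S rRNA reads that range went from 42.6% and 44.4% to 80.8% and 81.7%. In 5.8S rRNA reads it held 48.7% and 54.2% against 47.8% and 47.7%. In the inputs no length held more than 10.4% of the 18S reads, while 25 and 26 nt held 23.3% and 23.9% in the first IP library and 23.6% and 23.4% in the second. Short fragments of 18 to 22 nt fell from 28.3% ± 1.6 to 12.6% ± 0.43 of the 18S reads (SD, n = 2). Long ones of 33 to 36 nt fell from 12.4% ± 1.4 to 1.82% ± 0.30. For each of these shares the 4 libraries split by group, with the exact 2-sided permutation p at 0.333, the smallest that 2 against 2 libraries can give. Such shares within the 18S reads do not depend on the library size. With each distinct sequence counted once, 24 to 28 nt held 37.6% and 34.4% in the inputs and 55.9% and 55.5% in the IPs.

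**Figure D1:**
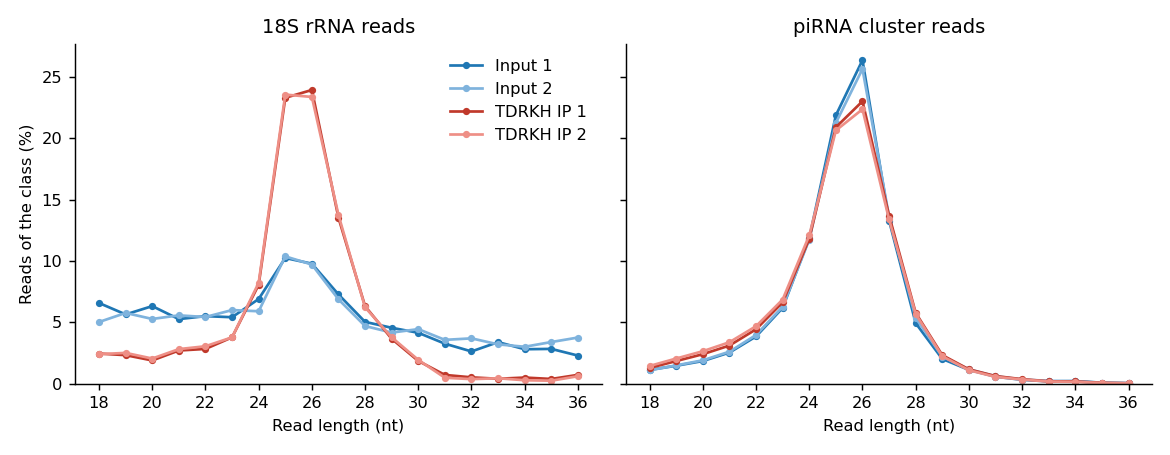
Percent of the reads of each class (y axis) by read length in nt (x axis), 1 line per library, for 18S fragments (left) and piRNA cluster reads (right). The 18S reads of both IPs peak at 25 and 26 nt like the piRNA cluster reads, while those of the inputs spread over all lengths with no length above 10.4%.

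Per listed read, 17 of 17 lengths tested fell (34 and 35 nt, with fewer than 1000 reads over the 4 libraries, were not tested), beside 65.5% of the 139 combinations of class and length. The smallest fall was at 26 nt, where the level went from 1002 and 1099 RPM to 521 and 506 RPM (log2 change -1.03 ± 0.15, edgeR adjusted p = 4.9e-11). With TMM factors this change was 0.026, so its direction depends on the scale. Of the lengths tested, 33 nt fell most, from 347 and 363 RPM to 8.89 and 9.76 RPM (log2 change -5.25 ± 0.19). Fragments of 35 nt went from 291 and 385 RPM to 8.53 and 5.42 RPM, a larger change.

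In first base, T was 27.4% and 29.1% of the input 18S reads and 50.9% and 51.6% of the IP 18S reads. T makes up 21.5% of the joined 18S sequence, so the inputs lay nearer to its composition than the IPs. The T share was lower in 18S reads of the IPs than in piRNA cluster reads, of which 88.6% and 87.8% began with T. In 5S rRNA reads T rose too, from 24.3% and 28.4% to 55.9% and 55.5%, and in 5.8S rRNA reads from 9.94% and 7.94% to 13.1% and 13.3%. The rise in 18S reads was also present apart from the length peak: among 18S reads outside 24 to 28 nt, T was 26.6% and 26.6% in the inputs and 50.7% and 52.4% in the IPs. Within 24 to 28 nt it was 28.7% and 33.3% against 50.9% and 51.3%. With each distinct sequence counted once, T was 27.5% and 27.9% against 38.6% and 39.3%. A at base 10, which marks piRNAs made by the ping-pong cycle, was 18.1% and 19.2% in the inputs and 24.7% and 26.8% in the IPs. A makes up 22.4% of the joined sequence. T at base 10 rose too, from 20.7% and 20.5% to 22.7% and 22.9%, and C fell from 21.4% and 21.6% to 12.8% and 12.1%. Each of these shares again gave the smallest exact permutation p of 0.333. G at base 10, with 39.8% and 38.7% against 39.8% and 38.2%, overlapped between groups. Whether the ping-pong cycle made any of these fragments was not tested.

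Per listed read, T-first 18S fragments fell least, by 1.46 ± 0.13 on the log2 scale. Those with A, C and G first fell by 2.91 ± 0.15, 2.72 ± 0.15 and 2.99 ± 0.15 (edgeR adjusted p at most 7.8e-21). All 4 were called lower, beside 82.4% of the 68 combinations of class and first base. The order of T above the others held with TMM factors, but the levels did not: T was then 1.73, and A, C and G 0.28, 0.47 and 0.19. TMM factors were computed anew for each set of features, and here moved the median of all combinations from -3.07 to 0.11. These levels are thus not on the scale of the -0.73 given for the whole 18S class. Per listed read T also fell least in 5S rRNA fragments (log2 change -0.15), while in bovine microRNAs G did (-4.25).

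**Figure D2:**
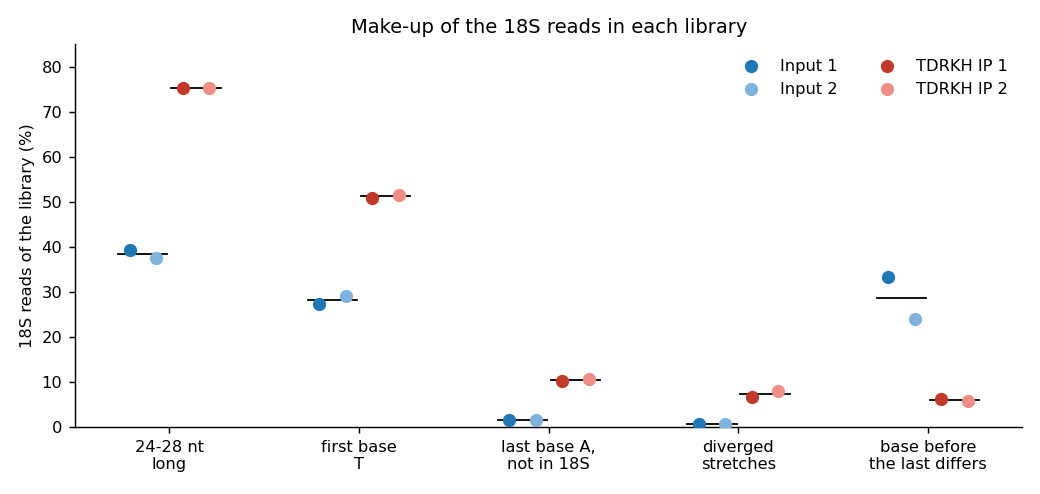
Percent of each library's 18S reads (y axis) with the features on the x axis, 1 point per library and a bar at the mean of the 2 libraries of a group. The groups do not overlap for any of the 5 features: 4 are higher in the IPs and differing bases before the last are lower.

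The 5′ ends of the IP reads were gathered at fewer leading positions. In the inputs 149 and 152 start positions were needed to hold 50% of the 18S reads, in the IPs 32 and 32. The 10 leading starts held 11.2% and 10.01% of the input 18S reads and 30.4% and 30.02% of the IP 18S reads. These values rest on abundant sequences: with each distinct sequence counted once the 10 leading starts held 7.94% and 5.96% against 8.39% and 8.25%, and without the 10 most abundant 18S sequences the difference was 12.2 percentage points in place of 19.6. Positions with any read were 1089 and 1285 in the inputs and 1100 and 1071 in the IPs. With every library thinned to 11054 18S reads, 149 and 149 against 33 and 33 starts held 50%. The 3′ ends were less sharply placed in the IPs than the 5′ ends: the 10 leading ends held 22.4% and 22.7% of the IP reads placed on the joined sequence, against 11.3% and 10.7% in the inputs.

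**Figure D3:**
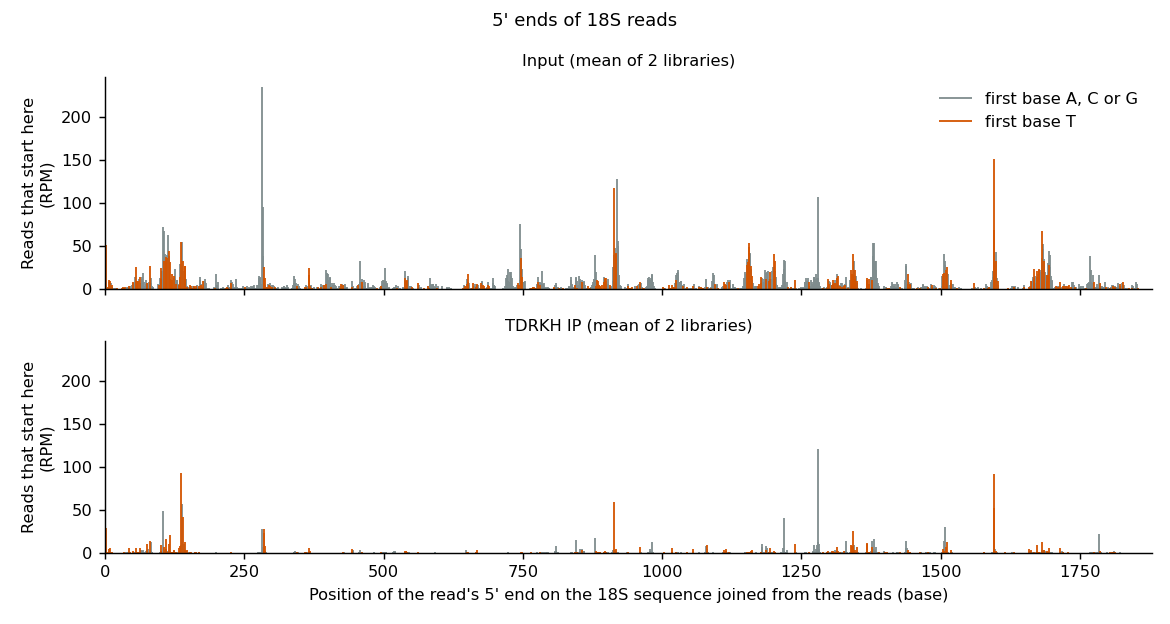
Mean RPM of 18S reads (y axis) by the position of their 5′ end on the joined 18S sequence (x axis, in bases from its first base), for inputs (top) and IPs (bottom), with starts at a T in orange. Reads with differing bases are included. The inputs cover most of the molecule, and the IPs keep a few sharp starts, at bases 137, 914, 1279 and 1595 among them.

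Regions of the molecule were kept to unequal degrees. Starts in bases 101 to 200 kept 0.326 of their input level (1124 and 1501 RPM in the inputs, 409 and 447 in the IPs). Those in bases 1201 to 1300 kept 0.331 and those in bases 1 to 100 kept 0.312. At the other end, bases 701 to 800 kept 0.0185, from 524 and 626 RPM to 12.1 and 9.13 RPM. Between these lay the other windows of 100 bases.

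For tests, sequences with the same first 18 bases were taken as 1 start. Of the 6718 member starts 560 passed the filter on low counts, and 6 of them rose and 430 fell (edgeR adjusted p), beside 15.1% of all 43118 starts tested that were higher and 17.6% that were lower. The median log2 change of the tested member starts was -3.48, and that of all starts 0.52. A start could pass the filter through 1 group alone: 356 of the 430 that fell passed only through the inputs and 0 of the 6 that rose only through the IPs, so these counts do not describe all members. When every sequence of a start had to carry an 18S name, 3 member starts rose. The other 3 lay on the diverged stretches described below, where 90.9% to 97.4% of the reads of these starts carried such a name. Without the first or the second IP library the member counts were 2 higher and 228 lower, and 0 higher and 233 lower, with 357 at an unadjusted edgeR p under 0.05 in the second case.

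By first base, the tested starts were as follows, as a description of those that passed. Of 166 tested starts at a T 100 fell, with a median log2 change of -2.02 over the 166. At A 109 of 129 fell (median -3.97), at C 120 of 141 (median -4.39) and at G 101 of 124 (median -3.70). The 6 that rose all began with T. Starts that stayed, with a log2 change of 0 or more, were 44, of which 23 began with T. They held 4.31% and 4.59% of the input 18S reads and 33.2% and 36.2% of the IP 18S reads, values that follow from how they were chosen.

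**Figure D4:**
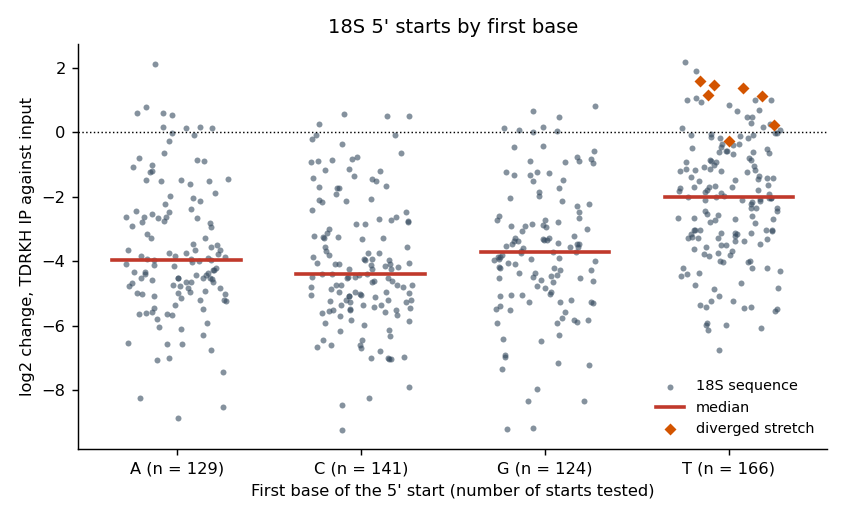
Log2 change between TDRKH IP and input (y axis) of each of the 560 18S starts tested, by its first base (x axis), with the median of each base as a red bar and starts on the diverged stretches as orange diamonds. The median of the T starts, -2.02, lies above those of A, C and G, and most points of all bases lie below 0.

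The leading input start lay at base 282, in Ggctttggtgactctagataacctcg. Its reads had 184 and 171 RPM in the inputs and 27.2 and 26.8 RPM in the IPs, with a log2 change of -2.72 ± 0.24 (edgeR adjusted p = 3.2e-11). The leading IP start, at base 1279, had 92.6 and 65.0 RPM in the inputs and 125 and 108 RPM in the IPs. Both IPs lay above both inputs there, but its change of 0.57 ± 0.24 did not pass (edgeR adjusted p = 0.0611). At base 137 the inputs had 41.7 and 48.0 RPM and the IPs 78.4 and 103 RPM, a rise of 1.01 ± 0.26 (edgeR adjusted p = 0.00257) that was not called without the second IP library (0.80, edgeR adjusted p = 0.290).

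Among the other leading IP starts, start 4 of the first diverged stretch rose, from 14.8 and 23.6 RPM to 48.0 and 59.9 RPM (1.46 ± 0.31, edgeR adjusted p = 0.00041), a call lost without the second IP library. The next ones did not rise. At base 1595 the inputs had 103 and 125 RPM and the IPs 100 and 77.03 RPM (log2 change -0.36 ± 0.23, edgeR adjusted p = 0.235). At base 104 they were 57.4 and 57.6 against 51.9 and 42.4 RPM (-0.29 ± 0.26, edgeR adjusted p = 0.423). The start at base 914, with 83.4 and 95.3 against 57.6 and 56.9 RPM, fell by 0.64 ± 0.24 (edgeR adjusted p = 0.0374), a call lost without the second input or either IP library (-0.54, -0.65 and -0.63). Starts 138 and 1596, the remaining ones, had changes of 0.27 and -0.14 that did not pass (edgeR adjusted p = 0.483 and 0.725).

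The start at base 745 was the reverse case. It had 40.8 and 90.8 RPM in the inputs (44 and 123 reads) and 1 read in each IP library, though those were 8.17 to 10.3 times deeper. Start 919 went from 84.3 and 100 RPM to 0.449 and 0.904 RPM.

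Of whole sequences, 38 members passed the filter of 10 RPM in 2 libraries. Of these 10 rose and 14 fell, beside 41.9% of the 11786 sequences tested that were higher and 19.9% that were lower. Of the 10 that rose 9 passed the filter only through the IPs, and of the 14 that fell 14 passed only through the inputs, so the direction of these was set in part by the filter and the counts support nothing about all members. The median of all tested sequences was 0.70 on the log2 scale, and TMM factors moved it to 0.02. With TMM factors 0 member sequences were called higher (20 of the 38 were at an unadjusted edgeR p under 0.05 in either direction) and 15 lower. Without the first or the second IP library 3 and 2 were higher, and 14 were lower in both cases. Bases 1507 to 1533 and the leading fragment of stretch 1, described below, kept their call with any 1 library left out, and each of the other 8 that rose lost it without at least 1 library.

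The sequence with the most IP reads, Cggacaggattgacagattgatagct of 26 nt, had 37.1 and 28.1 RPM in the inputs and 63.8 and 55.9 RPM in the IPs. It rose by 0.89 ± 0.31 on the log2 scale (edgeR adjusted p = 0.0140). Tcctacttggataactgtggtaattct went from 8.34 and 14.8 to 25.4 and 37.5 RPM, a rise of 1.41 ± 0.39 (edgeR adjusted p = 0.00335). Gatgtccggggctgcacgcgcgctaca went from 2.78 and 2.95 to 10.8 and 10.8 RPM, a rise of 1.90 ± 0.55 (edgeR adjusted p = 0.00442). In all 3 both IPs lay above both inputs, and all 3 lost the call with TMM factors. Bases 138 to 166, 137 to 161 and 1218 to 1243 rose by 1.30, 1.51 and 1.54, and lost it too. Without the second input the first and last of these were 2.25 and 2.67.

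Ttcgtgatggggatcggggattgca had 37.1 and 65.7 RPM in the inputs and 45.3 and 32.7 RPM in the IPs, and the groups overlap. Its log2 change was -0.41 ± 0.31 (edgeR adjusted p = 0.237). Atcagttatggttcctttggtcgct had 13.9 and 17.7 against 25.3 and 20.3 RPM, with a log2 change of 0.52 ± 0.37 (edgeR adjusted p = 0.212).

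Of the sequences that fell, Ggctttggtgactctagataacctcg led the inputs with 55.6 and 65.0 RPM and had 7.90 and 7.05 RPM in the IPs. It fell by 3.01 ± 0.32 on the log2 scale (edgeR adjusted p = 2.6e-09). Cctctcggcgccccctcgatgctctt had 28 and 83 reads in the inputs and 0 and 1 in the IPs. Per listed read the IPs held 0.000988 of its input level (95% Clopper-Pearson interval 2.48e-05 to 0.00562, counting error only). The short Acggccctggcggagcgc had 17 and 36 reads against 0 and 1, a ratio of 0.00207 (interval 5.14e-05 to 0.0120). Counts include PCR copies, which are not independent molecules.

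Fragments that end at the same base but start at different ones are compared here by their level in the IP. With the 3′ end fixed, 5′ end and length change together, so their parts cannot be told apart. The 3′ ends considered were the 16 of the sequences named by rule, with fragments of at least 20 reads over the 4 libraries. Described here are the 4 ends that had at least 3 such fragments, 1 or more of them below 0.1 of its input level, a choice made after the values were seen. At 161, 166, 1304 and 1533, which also had 3 or more, the fragments kept 0.854 to 7.81 of their input level, and at 163 they kept 0.185 to 2.72. These ends belong to sequences named as leading in the IPs or higher there, so high ratios follow in part from that choice. The 7.81 rests on 0 and 1 input reads and the 0.854 on 0 and 7. These are ratios of mean RPM, while ratios given with an interval are of reads pooled by group. The IPs were deeper, so a fragment could reach 20 reads through IP reads alone, and fragments rare in both groups were left out. The end at base 938 had 9 fragments, shown here from the longest down.
bases 913 to 938: Atgattaagagggacggccgggggca
bases 914 to 938: Tgattaagagggacggccgggggca
bases 915 to 938: Gattaagagggacggccgggggca
bases 916 to 938: Attaagagggacggccgggggca
bases 917 to 938: Ttaagagggacggccgggggca
bases 918 to 938: Taagagggacggccgggggca
bases 919 to 938: Aagagggacggccgggggca
bases 920 to 938: Agagggacggccgggggca
bases 921 to 938: Gagggacggccgggggca

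The 25 nt fragment had 29.6 and 42.1 RPM in the inputs and 35.1 and 37.7 RPM in the IPs (log2 change 0.01 ± 0.31, edgeR adjusted p = 0.980). The fragment of 20 nt had 34.3 and 42.1 RPM in the inputs, like the 25 nt one, and 0.180 and 0.271 RPM in the IPs. Those of 19 and 18 nt went from 21.3 and 23.6 to 0.269 and 0.0904 RPM and from 27.8 and 27.3 to 0.0898 and 0.0904 RPM. The 3 just named fell with an edgeR adjusted p of at most 3.3e-13. The fragments of 22 and 21 nt also begin with T and kept 0.102 and 0.0195 of their input level, and that of 23 nt kept 0.0509. The fragment of 24 nt, with 0 and 3 reads in the inputs and 13 and 9 in the IPs, kept 0.804 (95% interval 0.242 to 4.19, counting error only), so no fall was detectable at this depth. The fragment of 26 nt, with 4 and 2 against 11 and 7 reads, kept 0.329 (interval 0.125 to 1.01).

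Some fragments with a first base other than T had high levels in the IPs too. Of fragments that end at base 1463, Aacttcttagagggacaagtggcgtt (bases 1438 to 1463) had 5.56 and 15.5 RPM in the inputs and 8.17 and 8.32 RPM in the IPs. The fragment 1 base longer at its 5′ end, Caacttcttagagggacaagtggcgtt, went from 15.8 and 10.3 to 0.808 and 1.27 RPM, a fall of 3.60 ± 0.41 on the log2 scale (edgeR adjusted p = 6.1e-09). The fragment 1 base shorter, from base 1439, had 0 and 3 reads against 28 and 37. At the end at base 130, Cagttatggttcctttggtcgctcg went from 12.0 and 11.8 RPM to 0.0898 and 0.181 RPM (13 and 16 reads against 1 and 2). The fragment that starts 2 bases before it, Atcagttatggttcctttggtcgctcg, had 0 and 1 reads in the inputs and 23 and 22 in the IPs. The one between them, from base 105 and T-first, had 0 and 8 against 20 and 17 reads, or 0.507 of its input level (interval 0.232 to 1.26). The fragments from bases 1439, 104 and 105 reached the limit of 20 reads through the IPs, so their levels follow in part from that limit.

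At the end at base 770 every fragment given was low in the IPs, T-first or not. Tctcggcgccccctcgatgctctt, of 24 nt, went from 14.8 and 10.3 RPM to 0.449 and 0.181 RPM (log2 change -5.21 ± 0.44, edgeR adjusted p = 8.1e-12). This fragment begins with T and lies within 24 to 28 nt.

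**Figure D5:**
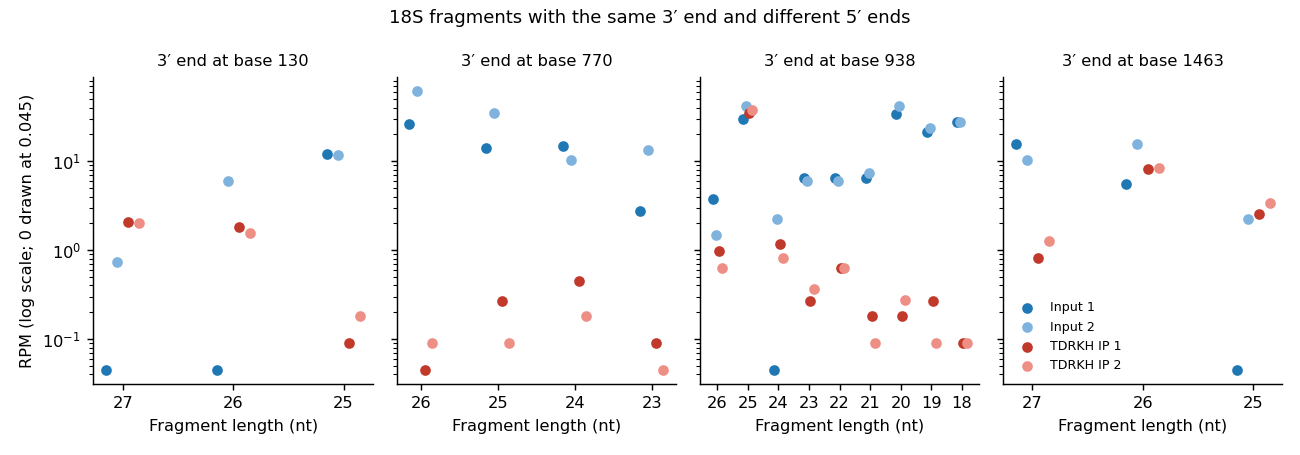
RPM on a log scale (y axis) of 18S fragments that end at base 130, 770, 938 or 1463 of the joined sequence, by fragment length (x axis), 1 point per library, with 0 drawn at 0.045. At base 938 the IPs match the inputs for the 25 nt fragment and lie below them from 23 nt down, and at base 770 they lie below at every length.

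At the 3′ end, the IP fragments often carried an A that the 18S sequence does not have there. The last base alone differed in 2.84% and 2.74% of the input 18S reads and in 11.2% and 11.6% of the IP 18S reads. That base was A in 55.4% and 58.8% of such input reads and in 92.0% and 92.2% of such IP reads. Reads with a differing last A were 1.57% and 1.61% of input and 10.3% and 10.7% of IP 18S reads (difference 8.95 percentage points, exact permutation p = 0.333). A differing last T was 0.443% and 0.372% against 0.714% and 0.747%, while C and G were lower in the IPs. The source of this base was not tested. The 3 with the most IP reads among sequences with such an A are shown with first and last base in capitals.
start 285: TttggtgactctagataacctcgggA
start 140: TacttggataactgtggtaattctagaA
start 1279: CggacaggattgacagattgatagcA

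The first of these had 5 and 4 reads in the inputs and 104 and 126 in the IPs (4.63 and 2.95 against 9.34 and 11.4 RPM). The same fragment with C, the base of the 18S sequence, as its last base had 6.49 and 2.95 RPM in the inputs and 8.53 and 7.96 RPM in the IPs. The second had 2.78 and 4.43 RPM against 9.52 and 10.6 RPM, above its 18S form with G (3.95 and 5.06 RPM in the IPs). The third had 2.78 and 2.95 against 11.9 and 7.96 RPM, below its 18S form with T, the leading IP sequence. Of the next by IP reads, the one from base 1330 was not higher in the IPs, with 5.56 and 8.86 against 5.30 and 6.33 RPM. The one from base 137 had 0.926 and 1.48 against 5.57 and 6.06 RPM. The start at base 285 lies 3 bases inside the leading input fragment, which starts at base 282 and fell.

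A small set of members departed from the joined 18S sequence. Their origin was not tested. They overlapped into 3 diverged stretches of 52, 49 and 38 bases, named mostly for the entry of 1366 bases. These took 0.805% and 0.809% of the input 18S reads and 6.77% and 8.17% of the IP 18S reads (with each distinct sequence counted once, 0.720% and 0.670% against 4.002% and 4.45%). The first went from 37.1 and 39.1 to 77.1 and 93.3 RPM, the second from 40.8 and 46.5 to 55.2 and 68.4 RPM, and the third from 4.63 and 5.91 to 14.99 and 15.4 RPM. In all 3 both IPs lay above both inputs. The stretches were built from the remaining overlaps with the most reads summed over the 4 libraries, and their number was set beforehand. Most of those reads were IP reads, so the higher level in the IPs follows in part from how the stretches were chosen. Each stretch had its leading start at a T, as the first base of its leading fragments shows.
stretch 1, bases 4 to 29: Ttccttaggattatataacaataatg
stretch 2, bases 22 to 46: Taaaatgtaaattatgggaataggt
stretch 3, bases 13 to 30: Ttcctaggcaggttgata

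The leading fragment of stretch 1 had 0 and 7 reads in the inputs and 142 and 165 in the IPs, and rose by 2.27 ± 0.60 on the log2 scale (edgeR adjusted p = 0.00221), or by 1.42 without the first input, which held none of its reads. Without the second input no input read is left and the change has no upper bound. That of stretch 2 rose by 1.06 ± 0.47 (edgeR adjusted p = 0.0487; 0.0754 to 0.296 with 1 library left out), and that of stretch 3 by 1.41 ± 0.51 (edgeR adjusted p = 0.0177). The last of these was 18 nt long, outside the length peak. Of the 10 member sequences and the 6 member starts that rose, 4 and 3 lay on these stretches. Without them, the T share among 18S reads was 26.9% and 28.7% in the inputs and 48.0% and 48.0% in the IPs.

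Differences before the last base went the other way. They were found in 33.4% and 24.1% of the input 18S reads and in 6.19% and 5.92% of the IP 18S reads, and the inputs also differed from each other. Per 1000 bases read, 13.6 and 9.68 bases differed in the inputs and 2.46 and 2.33 in the IPs. Among 18S reads that matched exactly, 24 to 28 nt held 36.7% and 35.8% in the inputs and 73.5% and 73.8% in the IPs, and T was the first base of 27.1% and 28.9% against 51.2% and 51.8%. At 1 position at least 10% of the reads over it shared the same differing base. This was C1248T (the base of the joined sequence first), in 14 of 32 and 20 of 48 covering reads of the inputs and 137 of 196 and 132 of 167 of the IPs. In the IPs T was thus the more frequent base, with 69.9% and 79.0%, and the joined sequence holds the less frequent one. Which base bovine 18S rRNA has there was not tested, so reads with T, counted here as differing, may be the faithful ones. Human 18S rRNA carries a hypermodified uridine at the position of that number, a modification known to stop or mislead reverse transcription. Whether the bovine numbering matches it was not tested.

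Reads were present at both ends taken for those of mature 18S rRNA. At base 1, 63 and 60 input reads and 373 and 278 IP reads began, or 58.4 and 44.3 RPM against 33.5 and 25.1 RPM. The tested 19 nt fragment from that end, Tacctggttgatcctgcca, had 9 and 16 against 132 and 126 reads, with a log2 change of 0.18 ± 0.42 (edgeR adjusted p = 0.700). At base 1869, taken as the mature 3′ end, 13 and 29 input reads and 2 and 4 IP reads ended, or 12.0 and 21.4 RPM against 0.180 and 0.362 RPM. Reads from the 5′ end thus kept a larger part of their input level than reads to the 3′ end, a difference not tested.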

How the data were processed

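The labels name TRIZOL for extraction, the NEXTflex Small RNA-Seq Kit V3 for the libraries and single-end reads of a NextSeq 500. The files deposited by the authors list, per library, distinct sequences of 18 to 36 nt with raw read counts and the names given by the unitas annotation. For its aligner settings and build: not given in the sources used here. Reads without a name were not analysed here, and totals are of listed reads. RPM are scaled to 1000000 of these. A count of 3 reads equals 2.78 and 2.22 RPM in the inputs and 0.269 and 0.271 in the IPs.

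The members, lists and tests were chosen with earlier results of these data known. The IPs were set against the inputs with the quasi-likelihood test of edgeR 4.0.16 (in R 4.3.3), taking listed reads as library size, fitted over all RNA classes, names, sequences, starts of 18 bases, or combinations of class with length or first base. Reads of a sequence with several names were divided equally. Benjamini-Hochberg adjusted p-values had a threshold of 0.05. The scripts were tested on simulated data. Shares used the exact 2-sided permutation test. Members were joined by overlaps of 14 bases, with the same result at 15 and a shorter second stretch at 13, and placed with up to 2 mismatches, which left 30 unplaced. No read matched the reverse strand. Of the members, 50 also carried a name outside 18S.

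Sequences named in the text were the leading 5 of each group by RPM and, per direction, up to 15 called with separated groups. Named starts were the 8 with the most reads per group. Alternatives were other library sizes, DESeq2 1.42.0, filters, a replicate block and leaving out each library, where a lone library was taken to vary as the other group did. TMM factors and DESeq2's own size factors were computed anew for each set of features, so changes under them share no common scale across sets. The joined sequence, differing bases, combinations of names, shared 3′ ends and alternatives on shares were added after seeing the data. Tables were made in Python 3.11.15 (pandas 2.3.3, numpy 2.4.6, scipy 1.17.1) and plots with matplotlib 3.10.9.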

Additional observations from a re-analysis of the deposited data

How the results depend on the processing

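The fall of the 18S class per listed read kept its direction and its call with every alternative run but 1, and was -2.38 to -2.24 with 1 library left out. With microRNA reads as library size it was 2.45, with 0 names lower, 28 sequences higher and 7 lower, 273 starts higher and 42 lower, 1 length and 0 first bases lower, and 12 combinations of names higher and 0 lower. Of all features tested, 11243 of 11786 sequences were then higher and 380 lower, and 41043 of 43118 starts higher and 614 lower. On that scale bases 282 to 307, 1595 to 1619, 282 to 308, 282 to 306, 283 to 307, 283 to 308 and 1437 to 1463 had log2 changes of 1.75, 4.37, 0.41, 2.17, 1.44, 0.56 and 1.10. Starts 104, 282, 283, 914, 1595 and 1596 had 4.48, 2.04, 1.20, 4.12, 4.41 and 4.63, first bases A, C, G and T 1.85, 2.05, 1.76 and 3.30, and 26 nt 3.73. With TMM factors 0 sequences were higher, 0 first bases lower (A 0.28, C 0.47, G 0.19, T 1.73), and 26 nt was 0.026. Of all features, 667 of 11786 sequences were then higher and 27 of 68 combinations of class and first base lower. DESeq2 with its own size factors gave 2 names lower, 0 sequences and 2 starts higher and 0 first bases lower (A 0.11, C 0.30, G 0.025, T 1.56). Of all features, 1333 of 5414 names were then lower, and 198 of 11786 sequences and 1559 of 43118 starts higher. DESeq2 with listed totals gave 4 sequences higher, beside 2969 of all 11786. IPs thinned to the depth of the first input gave 5, beside 3597 of all 11708. With edgeR's filterByExpr 33 of 326 members were higher and 96 lower, beside 11275 and 10283 of all 63296. A minimum of 50 RPM left 2 members, 1 higher and 1 lower, beside 1232 and 252 of all 2361. Starts higher were 3 when every sequence of a start had to be named 18S, beside 6529 of all 43118. Starts lower were 140 of 175 with a minimum of 10 RPM, beside 2540 of all 10400. With each distinct sequence counted once, 0 starts were higher and 245 of 273 lower, beside 748 and 4185 of all 12729. Start 4 of stretch 1 and starts 137, 138 and 1279 then had -0.12, -0.55, -1.12 and -1.40.

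In the shares (IP minus input, percentage points), counting each distinct sequence once gave 19.7 for 24 to 28 nt, 11.3 for first base T, 10.03 for a differing last A, 1.37 for the 10 leading starts and 3.53 for the diverged stretches. The main differences were 36.7, 22.9, 8.95, 19.6 and 6.66. Exact reads gave 21.1 for the leading starts. Without the diverged stretches T was 20.2 and the leading starts 21.0. Without the 10 most abundant 18S sequences the last A was 10.5, the leading starts 12.2 and the diverged stretches 7.76.

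Leaving out 1 library gave 2 to 8 sequences higher, 14 to 14 lower, 0 to 6 starts higher, 228 to 414 lower, and 0 to 1 combination of names higher. The shares were 35.9 to 37.6 for 24 to 28 nt, 22.1 to 23.8 for T, 8.75 to 9.14 for the last A, 19.0 to 20.2 for the leading starts, 5.97 to 7.36 for the diverged stretches and -27.4 to -18.1 for differences before the last base.

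The labels number the libraries 1 and 2 in both groups, but libraries of the same number did not deviate together (correlation -0.012 over 5414 names and 0.0058 over 560 18S starts). With the replicate block the class change was -2.31, 9 sequences were higher and 14 lower, and 4 starts were higher and 373 lower. Start 914 (-0.64) and the leading fragment of stretch 2 (1.07) lost their call with it. The inputs limit the depth: a fragment with 3 reads or fewer there lies at or under 2.78 and 2.22 RPM.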
